A study of Rattus norvegicus with 2 samples.

Results

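Of the 17260 circular RNAs (circRNAs) considered in the deposited table, 5347 were uncatalogued circRNAs of middle span. These are rows with 1 gene name, without a human identifier of circBase, a catalogue of published circRNAs, and with more than 500 and fewer than 50000 bp between their ends. They were chosen by position, name and catalogue entry only. Of 7945 uncatalogued rows, 1654 had several gene names and 18 had none; of the 6273 with 1 name, 612 spanned 500 bp or less and 314 spanned 50000 bp or more. The name was a date in 14 of the 5347 and a small RNA in 6, which left 5327 with a usable host gene. The shortest span just inside the lower limit was 502 bp (DNAJB6, 3 and 0 reads in the control and the bone cancer pain library) and the longest just outside it was 498 bp (YES1, 3 and 0). At the upper limit, POLN (0 and 2 reads) lay just inside at 49936 bp and DYM (10 and 7) just outside at 50186 bp.

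The series is a rat model of bone cancer pain. Walker256 cells, a rat breast carcinoma line grown as ascites in SD rats for 9 to 12 days, were put into the marrow cavity of the tibia. The bone cancer pain group received live cells and the control group the same cells after 20 minutes of boiling, so both had surgery and both received tumour cell material; each group had 3 animals, killed on day 21. The labels give neither sex, age nor a genotype, do not say whether RNA of the 3 animals was pooled, and name the source both as tumour cells and as spinal cord. There was 1 library and 1 value column per group, so no difference between the libraries has a replicate check, and all intervals below are 95% intervals that cover counting error only.

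A circRNA forms when the spliceosome joins a downstream donor site back to an upstream acceptor site. The resulting loop has no free end, so it resists RNase R, which degrades linear RNA, and it is recognised in sequencing by reads across the back-splice junction. A single gene can give many loops, and loops that use the same acceptor or the same donor are alternatives at that site. In the text, the start is the lower and the end the higher coordinate of a circRNA in the table; strand was not listed there, so starts and ends were not sorted into donors and acceptors. The host symbols and coordinates are human in style, and the table names no genome build. The processing notes name the rat build rn6. However, 51 of these uncatalogued circRNAs lay on chromosome 21 and 125 on chromosome 22, which the rat lacks. The coordinates are therefore not those of rn6, and a shared gene name does not place a junction in the rat genome. Of the 2877 host genes, 2562 (89.1%) had a rat gene of the same name in the RefSeq table (assembly GRCr8), and 2557 of those rat genes are protein coding. No sequence is shown, since no sequence of the table's build was used here.

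Junction reads numbered 159941 for control and 151685 for bone cancer pain, recovered from the deposited values as described under the processing. None of the 18 neuronal, 10 microglial and macrophage or 9 blood markers looked for had a circRNA of that gene name alone in either library, catalogued or not. In a row with several gene names, the neuronal marker SYT1, a synaptic vesicle protein, had 0 and 2 reads. Among 8 astrocyte markers 1 had a circRNA, with 0 control and 4 bone cancer pain reads. Of 12 oligodendrocyte markers 2 had one, both uncatalogued, in MBP, a myelin protein (2 and 3 reads), and in MYRF, a myelin transcription factor (0 and 2). Of 10 carcinoma and epithelial markers 1 had a circRNA, with 36 and 35 reads, none of them on uncatalogued circRNAs of middle span. Apart from that SYT1 row, circRNAs of the neuronal markers looked for were therefore not listed. Of the epithelial markers in the list, KRT8, KRT18, KRT19 and EPCAM were not listed either. The housekeeping genes ACTB, GAPDH, EEF1A1 and TUBB had no circRNA as well, so a missing circRNA does not show a missing mRNA. RIMS1, a presynaptic scaffold outside the neuronal list, had 127 and 90 reads in all. KRT7, an epithelial keratin outside that list and named after its values were seen, had 3 uncatalogued circRNAs, the largest with 0 and 12 reads. In such bulk libraries, fewer cells of a type and less RNA per cell cannot be told apart. Of 14 markers of endothelium, pericytes and fibroblasts, 4 had a circRNA (65 and 140 reads in all). Uncatalogued circRNAs of middle span gave 45 and 104 of these reads. The part of that difference in the results below was not tested.

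Uncatalogued circRNAs of middle span were many and mostly rare. The control library listed 3280 and the bone cancer pain library 3424, each with a median of 3 reads and a 90th percentile of 11 reads. At the lowest listed value of 2 reads stood 1198 in the control library and 1249 in the bone cancer pain library, which was 36.5% of those listed in each. For comparison, catalogued circRNAs with 1 host gene and the same span limits numbered 7811, and had a median of 6 reads in either library, with 19.1% and 18.0% of those listed at 2 reads. The uncatalogued ones thus made up 5347 of 17260 circRNAs but took 11.5% of control reads (exact binomial interval 11.4 to 11.7; 18449 reads) and 12.6% of bone cancer pain reads (12.4 to 12.8; 19110 reads). Catalogued circRNAs of the same span took 69.6% (69.4 to 69.8) and 68.2% (67.9 to 68.4). Their spans were much alike, with a median of 6547 bp (quartiles 2654 and 14772) for the uncatalogued and 6252 bp (2339 and 14253) for the catalogued.

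Detection in both libraries was the exception for the uncatalogued circRNAs. Both libraries listed 1357 of the 5347 (25.4%, 24.2 to 26.6), while 1923 were in the control library only and 2067 in the bone cancer pain library only. Among all circRNAs the share in both was 41.9%, and among the 7811 catalogued ones it was 57.2% (56.1 to 58.3). The 1357 held 64.3% of all uncatalogued reads, and their median was 11 reads over both libraries. Much of the gap went with abundance. Among circRNAs with 2 to 4 reads, 2.89% of 3466 uncatalogued and 5.62% of 2580 catalogued were in both libraries. Nothing under 2 reads was listed, so a circRNA in both libraries had at least 4 reads. The outcome in this class was thus largely fixed, and it held 64.8% of the uncatalogued and 33.0% of the catalogued circRNAs. With 5 to 9 reads the shares were 49.0% (45.9 to 52.1) and 55.2% (52.8 to 57.6), with 10 to 19 reads 84.3% (80.8 to 87.4) and 89.8% (88.1 to 91.4), and with 20 to 49 reads 97.2% (94.4 to 98.9) and 99.6% (99.1 to 99.9). The uncatalogued share was the lower one in each of these read classes. Weighted to the read classes of the catalogued circRNAs, it came to 53.2%, beside 57.2%.

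**Figure D1:**
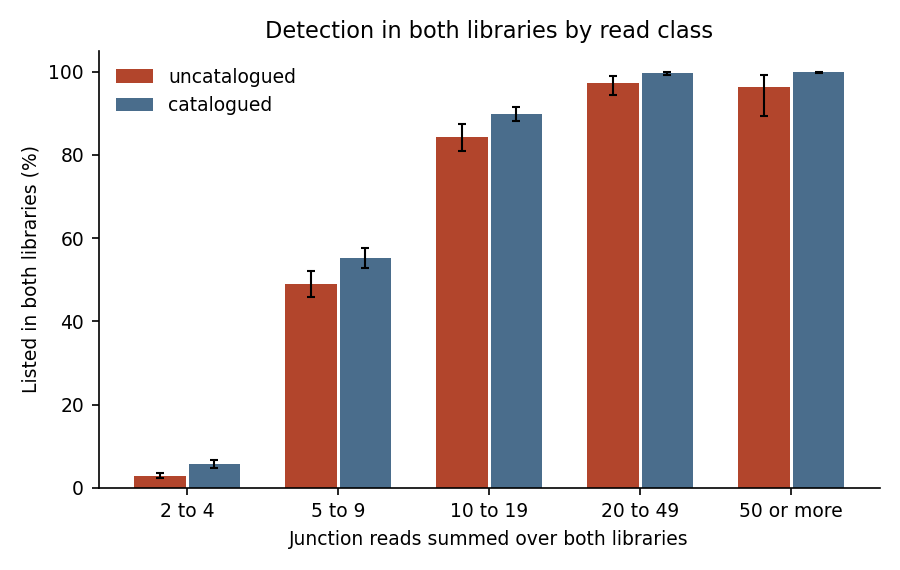
Share of circRNAs listed in both libraries (y axis, percent) by junction reads summed over both libraries (x axis), for 5347 uncatalogued (red) and 7811 catalogued (blue) circRNAs with 1 host gene and middle span; error bars are exact binomial 95% intervals. Both series rise with reads, and the red bar is the lower in every class, from 2.89% against 5.62% at 2 to 4 reads to 96.2% against 100% at 50 or more. With 2 reads as the lowest listed value, circRNAs with fewer than 4 reads cannot be in both libraries.

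The most abundant uncatalogued circRNA came from PLOD2, a lysyl hydroxylase that prepares collagen for cross-linking (chromosome 3, 145838899 to 145842016, 3118 bp). It had 564 control and 832 bone cancer pain reads, or 3526.3 and 5485.1 RPM (reads scaled to the library's junction reads), a ratio of bone cancer pain to control of 1.56 (1.40 to 1.73). It stood far above the next, a circRNA of MYO10, a myosin of filopodia (chromosome 5, 16779654 to 16783578), with 122 and 123 reads (1.06, 0.821 to 1.38). Next came RIMS1, a scaffold of the presynaptic active zone (chromosome 6, 73005640 to 73043538), with 125 and 90 (0.759, 0.572 to 1.00). The RIMS1 circRNA spanned 37899 bp and was nearly all of what that gene gave, 215 of 217 reads. EIF2AK2, the kinase PKR that senses double-stranded RNA (chromosome 2, 37329066 to 37331275), had 80 and 113 (1.49, 1.11 to 2.01). LEMD3, an inner nuclear membrane protein (chromosome 12, 65604706 to 65612399), had 101 and 62 (0.647, 0.464 to 0.897).

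The remaining 7 of the 12 most abundant ones held 104 to 150 reads over both libraries. FOSL1, a subunit of the AP-1 transcription factor (chromosome 11, 65661485 to 65664477), had 76 reads in control and 28 in bone cancer pain (0.388, 0.242 to 0.606). Among those 12 it was the one member listed in both libraries that differed by 2-fold or more. FKBP3, a nuclear prolyl isomerase, had 42 and 64 (1.61, 1.07 to 2.43). The zinc finger gene ZNF124 had 41 and 63 (1.62, 1.08 to 2.46). Both lay above 1 in the bone cancer pain library and under 2-fold. MIER1, a transcriptional repressor (50 and 54; 1.14, 0.761 to 1.71), and SIPA1L1, which activates the GTPase of Rap (59 and 46; 0.822, 0.547 to 1.23), had intervals that hold 1. MYH9 (150 and 0) was listed in the control library only and is described further on.

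**Figure D2:**
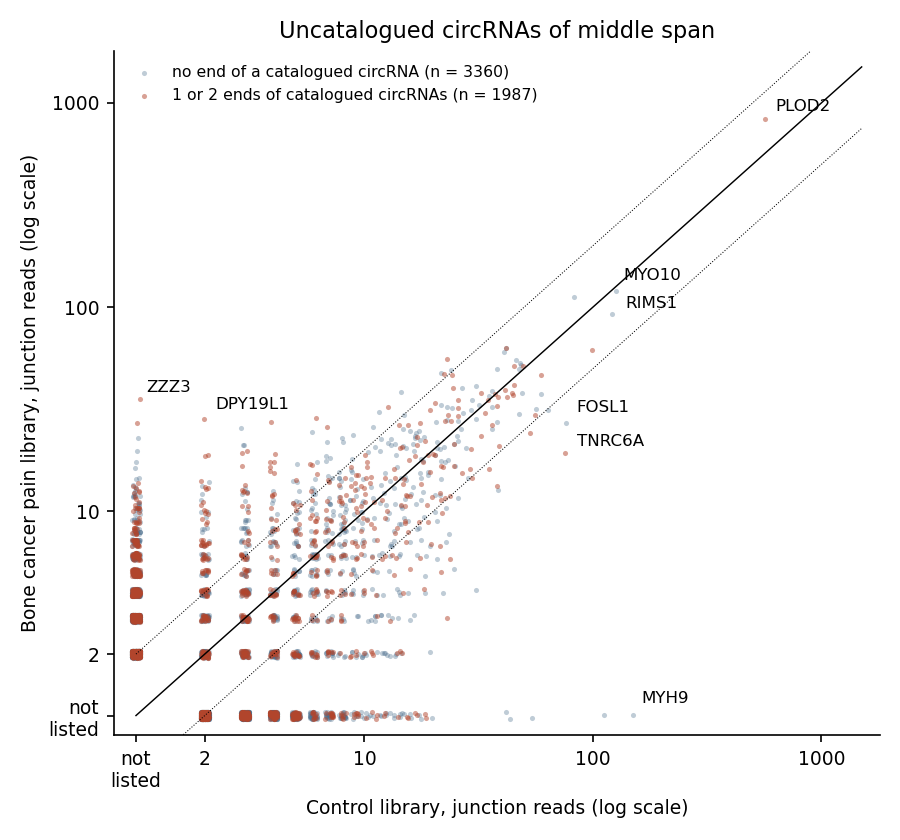
Junction reads of each of 5347 uncatalogued circRNAs in the control (x axis) and the bone cancer pain library (y axis), both on log scales with circRNAs that were not listed drawn at the axis; points are spread slightly so that equal values can be told apart, and colour shows whether an end is shared with a catalogued circRNA. The solid line marks equal reads and the dotted lines a 2-fold difference in reads: PLOD2 (564 and 832) lies far from the rest near the solid line, and MYH9 (150) lies on the lower axis.

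Where the reads allowed a comparison, the uncatalogued circRNAs were called 2-fold apart more often than a background not matched for reads. A call was a matter of size alone: after adding 0.5 reads per library, the ratio had to reach 2 or 0.5, and 10 or more reads over both libraries were needed. Of the 5347, 830 had that many; 184 (22.2%) were higher by 2-fold or more in bone cancer pain and 156 (18.8%) lower by as much, beside a background of 17.3% higher and 17.0% lower among all 5415 circRNAs with as many reads. The median log2 ratio was 0.076, beside -0.004 over all and -0.027 over the 3528 catalogued ones. This value equals the log2 ratio of the library totals (0.076), so the median uncatalogued circRNA had equal reads in both libraries: 403 had more in the bone cancer pain library, 372 more in the control and 55 the same. Of the higher ones 119, and of the lower ones 102, had an interval without 1. Within read classes, calls either way made up 49.7% (45.2 to 54.2) of 497 uncatalogued and 48.8% (46.1 to 51.4) of 1364 catalogued circRNAs at 10 to 19 reads. At 20 to 49 reads these were 30.8% (25.2 to 36.9) and 26.9% (24.4 to 29.4), and at 50 or more 18.8% (10.9 to 29.0) and 14.1% (11.9 to 16.6), with overlapping intervals in all 3 classes. The gap to the background was thus not separated from reads. Across circRNAs with 20 or more reads that both libraries listed, Pearson's r of log2 reads between the libraries was 0.415 over 323 uncatalogued and 0.732 over 2159 catalogued circRNAs, as a description over circRNAs of the same 2 libraries whose range of reads differed.

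Among uncatalogued circRNAs with 20 or more reads that both libraries listed, a limit set after seeing the data, the highest ratio was that of DPY19L1, a mannosyltransferase gene (chromosome 7, 35006506 to 35013217), with 2 control and 29 bone cancer pain reads (15.3, 3.87 to 132). Another DPY19L1 circRNA, from 35050080, was the more abundant at 30 and 41 reads. TAX1BP1, a receptor of selective autophagy (chromosome 7, 27824782 to 27839709), and the zinc finger gene ZNF292 (chromosome 6, 87925621 to 87943245) had the same reads, 2 and 19 (interval of the ratio 2.42 to 88.7). MX1, an interferon-induced GTPase (chromosome 21, 42812925 to 42813748), had 3 and 26 (9.14, 2.80 to 47.2). All 4 stood at 2 or 3 reads in the control library, at or next to the lowest listed value, so their ratios have wide intervals. Ordered with 0.5 reads added to each library, the lowest were TTLL1, a tubulin-modifying enzyme (chromosome 22, 43435786 to 43442579), with 20 and 2 (0.105, 0.0119 to 0.434), and ABCA5, a lipid transporter (chromosome 17, 67270084 to 67280213), with 30 and 4 (0.141, 0.0360 to 0.399). NPEPPS, an aminopeptidase, had 23 and 3, and without the added reads its ratio of 0.138 (0.0264 to 0.455) was under that of ABCA5. A circRNA of TNRC6A, a partner of Argonaute in gene silencing by microRNAs (chromosome 16, 24762047 to 24769681), was lower on more reads, 77 and 19 (0.260, 0.149 to 0.434).

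Abundant circRNAs that only 1 library listed, a comparison chosen after seeing the data, made up a larger share of the uncatalogued ones. Of 333 with 20 or more reads, 10 were in 1 library only (3.00%, 1.45 to 5.45), beside 0.779% of all circRNAs with as many reads and 5 of 2164 catalogued ones (0.231%, 0.0751 to 0.538). Of the 10, 6 were in the control library and 4 in the other, and 8 had neither end in a catalogued circRNA. Because the table lists nothing under 2 reads, an unlisted circRNA can still have had 1 read, and no fold is given for them.

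Several of the 10 came from genes of the actin cytoskeleton and the extracellular matrix, and the other circRNAs of each gene were listed in both libraries in sum. The circRNA of MYH9, the heavy chain of nonmuscle myosin IIA (chromosome 22, 36694965 to 36696280), had 150 control reads and was not listed in bone cancer pain, while its other 28 circRNAs had 74 and 155 reads. The other MYH9 circRNAs thus had more reads in the library where the main junction was not listed. For SPARC, a collagen-binding matrix protein (chromosome 5, 151054173 to 151055762; 52 and none), the other 2 had 17 and 27. For FLNA, a filamin that cross-links actin (chromosome X, 153577730 to 153581184; 42 and none), the other 18 had 74 and 47, and for PTMS, a small acidic nuclear protein (chromosome 12, 6879087 to 6879654; 44 and none), the 1 other circRNA had 30 and 22. CDC123, an assembly factor of translation initiation (chromosome 10, 12277047 to 12280484), had 20 and none, beside 7 and 6 on its other 2.

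In the other direction, a circRNA of ZZZ3, a zinc finger protein of a histone acetyltransferase complex (chromosome 1, 78097535 to 78107340), had none listed in the control library and 35 bone cancer pain reads, while its other 4 had 20 and 20. At the end coordinate 78107340 all 5 circRNAs named for ZZZ3 alone meet, and they differed between the libraries in both directions. The catalogued hsa_circ_0006395 had 0 and 12 reads there and hsa_circ_0002717 had 9 and 2, and the uncatalogued one from 78105134 had 11 and 4. A second MYH9 junction (36682764 to 36684934) had 0 and 27 reads. GOLM1, a Golgi membrane protein (chromosome 9, 88648197 to 88655783), had 0 and 23, with 55 and 57 on its other 5. COL4A2, a basement membrane collagen (chromosome 13, 111114507 to 111132737), had 0 and 20, with 16 and 23 on its other 7. For GOLM1 and ZZZ3 the other circRNAs of the gene were about equal between the libraries.

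The ends were compared next, to see how far the uncatalogued circRNAs reuse back-splice sites of catalogued ones. An end counted as shared where a catalogued circRNA of the table, of any span and host, had the same start or the same end coordinate. Of the 5347, 1987 (37.2%, 35.9 to 38.5) shared at least 1 end: 873 the start only, 895 the end only and 219 (4.10%, 3.58 to 4.66) both ends, each with another catalogued circRNA. The other 3360 (62.8%, 61.5 to 64.1) shared neither. Among the 7811 catalogued circRNAs, 4407 (56.4%, 55.3 to 57.5) shared an end with another catalogued one, and 990 (12.7%, 11.9 to 13.4) shared both. Shared ends were thus the rarer case for uncatalogued circRNAs, in every read class: at 2 to 4 reads 34.9% of the uncatalogued and 48.1% of the catalogued shared an end, and at 50 or more reads 47.5% (36.2 to 59.0) and 73.2% (70.1 to 76.1). This comparison was not separated from the hosts. No catalogued circRNA was listed for the hosts of 1616 uncatalogued ones. Of 1976 with a shared end and a usable host, 1964 had a host with a catalogued circRNA. In such hosts, 1964 uncatalogued circRNAs shared an end and 1747 did not.

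Uncatalogued circRNAs with both ends shared join a start of one catalogued circRNA to an end of another in a pairing that has no catalogue entry. They were longer, with a median span of 17373 bp, against 9777 bp with the start shared, 9319 bp with the end shared and 4892 bp with neither. Both libraries listed 88 of the 219 (40.2%, 33.6 to 47.0), 254 of 873 (29.1%, 26.1 to 32.2), 227 of 895 (25.4%, 22.5 to 28.3) and 788 of 3360 (23.5%, upper limit 24.9). Detection in both libraries was thus most frequent with both ends shared, as it was for catalogued circRNAs (70.4% with both and 50.3% with neither). Reads differed as well. The median was 14 with both and 6 with neither among the catalogued, and 4 and 3 among the uncatalogued. The contrast by shared ends was therefore not separated from abundance. Those with 1 or 2 shared ends held 40.3% of the uncatalogued control reads and 43.7% of those in bone cancer pain. With an end only, 42 of 145 with 10 or more reads were 2-fold higher and 20 lower, and with a start only 27 of 138 were higher and 27 lower, beside the 17.3% and 17.0% over all circRNAs.

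**Figure D3:**
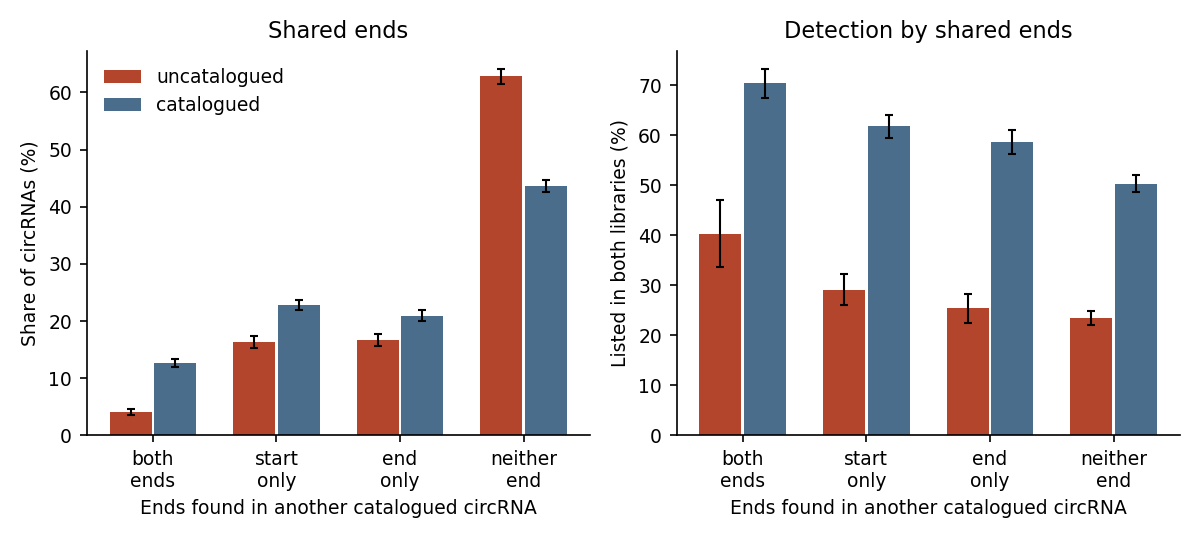
Left, share of circRNAs (y axis, percent) by which of their ends another catalogued circRNA has (x axis), for 5347 uncatalogued (red) and 7811 catalogued (blue) circRNAs; right, share listed in both libraries in the same classes. Error bars are exact binomial 95% intervals: 62.8% of the uncatalogued and 43.6% of the catalogued have neither end in another catalogued circRNA, and detection in both libraries is highest with both ends shared (40.2% and 70.4%).

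The most abundant pairing of 2 catalogued ends was that of UBE2Q2, a ubiquitin-conjugating enzyme (chromosome 15, 76152219 to 76165909), with 46 control and 50 bone cancer pain reads (1.15, 0.752 to 1.75). Its most abundant catalogued partner, hsa_circ_0036376, which has the same end, had 8 and 11, so the uncatalogued loop was the larger one in both libraries. CEP128, a centriole protein (chromosome 14, 81362062 to 81372425), had 43 and 36 reads, and its partner hsa_circ_0002499 had 14 and 12. ANKIB1, a ubiquitin ligase gene (chromosome 7, 91924203 to 91957214), had 25 and 40, and its partner hsa_circ_0001723 had 6 and 9. In these 3 genes both loops kept the same order in both libraries. MCTP1, a calcium-binding membrane protein on chromosome 5, had 2 such pairings, at 22 and 49 reads (94224584 to 94259726; 2.35, 1.39 to 4.08) and at 33 and 24 (94244956 to 94267696; 0.767, 0.434 to 1.34). Both lay well under their common partner hsa_circ_0008417 with 191 and 190. The last of the 6, of the clone-named gene GS1-124K5.12 (chromosome 7, 66038372 to 66041916), had 32 and 39 reads, beside 24 and 21 for hsa_circ_0007417, whose end lies at 66041919.

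Among circRNAs with 1 shared end, PLOD2 led. It had the same end as hsa_circ_0067682 (145820542 to 145842016), which had 41 and 106 reads, so at that site the uncatalogued loop was the larger in both libraries. CWF19L2, a gene of a splicing factor family (chromosome 11, 107260800 to 107263621), had 50 and 51 reads, and the catalogued loop with the same start, hsa_circ_0006868, had 18 and 14. For TNRC6A, the catalogued loop at the shared start, hsa_circ_0006008, had 0 and 6 reads beside the 77 and 19 given above. For SIPA1L1 it was hsa_circ_0006783 with 7 and 0. For ZNF124 the catalogued loop was the larger, hsa_circ_0002922 with 58 and 112 reads beside 41 and 63.

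Over all 1987 uncatalogued circRNAs with a shared end, the most abundant catalogued circRNA at that end had more reads in 1537 (77.4%), as many in 130 and fewer in 320 (16.1%). The medians were 3 reads for the uncatalogued and 15 for the catalogued partner, with 1588 distinct partners in all, so some pairs share one. In 1066 pairs with 20 or more reads together, the median uncatalogued circRNA had 0.105 times the reads of its partner, and 102 had more than it. The extremes of the uncatalogued loop over its partner were LEMD3 (101 and 62 reads; hsa_circ_0027441 had 0 and 4) and ATP6V1D, a subunit of the vacuolar proton pump (43 and 37; hsa_circ_0032269 had 0 and 2). TERF2, which binds telomeres (46 and 42; hsa_circ_0040062 had 3 and 0), and SOAT1, which esterifies cholesterol (44 and 39; hsa_circ_0005271 had 0 and 3), followed. In these 4 the catalogued loop was the rare form of the site. At the other extreme, uncatalogued circRNAs of ASPH (3 and 0), SPECC1 (2 and 0), ASXL1 (5 and 0), CORO1C (3 and 0) and GCN1L1 (2 and 0) shared ends with catalogued ones of 4792, 1571, 3901, 1943 and 840 reads over both libraries. All 5 were listed in the control library alone.

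**Figure D4:**
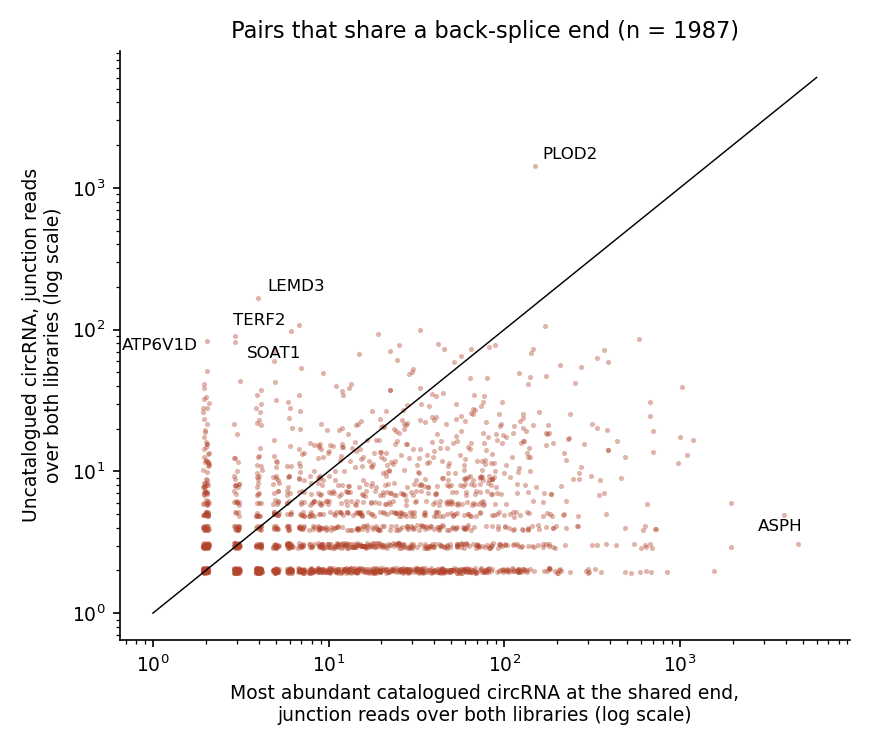
Junction reads over both libraries of 1987 uncatalogued circRNAs (y axis) against those of the most abundant catalogued circRNA at a shared end (x axis), both on log scales; points are spread slightly, and the line marks equal reads. Most points (77.4%) lie under the line, while PLOD2 (1396 against 147 reads), LEMD3 (163 against 4) and TERF2 (88 against 3) lie far above it.

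Summed over the 1900 coordinates that both kinds used, uncatalogued circRNAs took 13.7% of control reads (13.4 to 14.0) and 16.2% of bone cancer pain reads (15.9 to 16.5). Without PLOD2 the shares were 12.9% and 15.0%. At the 1461 coordinates with 10 or more reads the median uncatalogued share was 16.7% (quartiles 7.32% and 40.0%), and it was above 50% at 260 (17.8%). Most coordinates served 1 uncatalogued circRNA, 4332 of 4803 starts and 4340 of 4815 ends. The most reused was an end in EP300, a histone acetyltransferase (chromosome 22, 41569788), with 5 uncatalogued circRNAs, 3 control and 18 bone cancer pain reads, and no catalogued one. The MYO10 start at 16779654 served 4, with 132 and 146 reads and again no catalogued one. Of those 4, the largest had the 122 and 123 reads given above, while the loop from 16779654 to 16780717 had 3 and 21 (7.38, 2.20 to 38.6).

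The libraries could also be compared pair by pair at a shared end. In 242 pairs both circRNAs had 10 or more reads. The partner was by rule the catalogued circRNA with the most reads at the end. Calls were more frequent at fewer reads, so the sides of a pair were not matched for being called. In 119 of the pairs neither was 2-fold apart between the libraries, in 66 the uncatalogued one alone was and in 29 the catalogued one alone. Both were higher in 14, both lower in 5, and 9 went opposite ways. Of these 9, 8 are described here, named after their values were seen. In STIP1, a co-chaperone that links HSP70 and HSP90, the uncatalogued loop (chromosome 11, 63960550 to 63963285) had 18 control reads and was not listed in bone cancer pain, and hsa_circ_0022631 from the same start had 16 and 160. In DLG1, a membrane scaffold, the uncatalogued loop (chromosome 3, 196803457 to 196846401) had 2 and 11 reads and hsa_circ_0008500 at the same end 367 and 125. In ERC1, a scaffold of cell cortex and active zone (2 and 14; hsa_circ_0004657 had 26 and 12), KMT2E, a chromatin protein (3 and 11; hsa_circ_0081813 had 10 and 0), and PIAS2, a SUMO ligase (0 and 14; hsa_circ_0047596 had 8 and 2), the uncatalogued loop was likewise higher in the bone cancer pain library. In MCTP2 (8 and 3; hsa_circ_0000657 had 4 and 10), SMARCC1 (9 and 2; hsa_circ_0065298 had 5 and 13) and ZZZ3 it was the lower one there. Apart from STIP1 and DLG1, each circRNA of the pairs described had at most 26 reads in a library.

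A small group of ends missed a catalogued end by a few bases. Outside exact matches, 39 ends of uncatalogued circRNAs lay 1 to 10 bp from the nearest catalogued end of the same kind, and 20 of these (51.3%) lay exactly 3 bp away, 14 at starts and 6 at ends; none lay 1 bp away. In 16 of the 20 the other end of the loop was identical. At 14 of the 20 the uncatalogued form had fewer reads than the catalogued neighbour. In MPP6, a membrane scaffold on chromosome 7, the uncatalogued start at 24663282 lay 3 bp from the catalogued 24663285, and both starts joined the same 3 ends. To 24708279 the uncatalogued form had 23 and 56 reads and hsa_circ_0001686 22 and 58; to 24690331 the reads were 37 and 37 beside 66 and 82 for hsa_circ_0001685, and to 24681487 9 and 0 beside 4 and 3. At the first of these ends both forms were higher in the bone cancer pain library by nearly the same reads. In MLLT4 (afadin), the uncatalogued start at 168271063 had 4 and 16 reads to the end 168290006, and the catalogued form 3 bp away, hsa_circ_0004342, had 0 and 2. In CRIM1 it was the reverse, 9 and 2 uncatalogued reads beside 634 and 360 for hsa_circ_0007386. These genes were named after their values were seen. With ends within 5 bp counted as shared, the share of uncatalogued circRNAs with a shared end was still 37.2%.

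Of the 3360 uncatalogued circRNAs with neither end in a catalogued one, 1131 (33.7%) shared an end with another uncatalogued circRNA, and 2229 (66.3%) had ends found in no other circRNA of the table. Their host had a catalogued circRNA in 52.1%. Among 3711 uncatalogued circRNAs whose host had a catalogued one, 1157 (31.2%) lay inside a catalogued loop and 1041 (28.1%) held one. A further 332 (8.95%) overlapped in part, and 1181 (31.8%) lay apart from all catalogued loops of the gene.

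The hosts numbered 2877. Of these, 1689 (58.7%) had 1 uncatalogued circRNA of middle span, 625 had 2, 403 had 3 or 4, and 160 had 5 or more. No catalogued circRNA of that name alone was listed for 1121 of the hosts (39.0%), although 24 of them occur in a catalogued row with several names. The 1121 held 1616 of the uncatalogued circRNAs and 10982 of their reads. EIF2AK2 was the most abundant of these, with 92 and 126 reads on 5 circRNAs. PAWR, a pro-apoptotic regulator (98 and 94 reads), and MIER1 (79 and 98) came next. Across 4767 hosts with either kind, the number of uncatalogued and the number of catalogued circRNAs had a Spearman's rho of -0.025 (a description over genes of the same libraries). Hosts with neither kind were left out, so a host lacking one kind always had the other. That selection lowers rho, and nothing is concluded from it.

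MYH9 had the most uncatalogued circRNAs, 21, of which 3 were in both libraries, 4 in the control only and 14 in the bone cancer pain library only. Without the 150-read junction, most were at 2 to 5 reads, and 15 of the 21 had neither end in a catalogued circRNA. UTRN, the utrophin that links actin to the membrane, had 18, with 56 and 60 reads (1.13, 0.772 to 1.66) and 6 in both libraries. DLG1 had 14 (40 and 54 reads; 1.42, 0.928 to 2.20), which were 4.71% and 9.84% of that gene's reads. The ubiquitin ligase RNF213 (45 and 45), the deubiquitinase USP34 (31 and 35) and the cohesin regulator PDS5A (20 and 20) had 12 each. In UTRN, DLG1, RNF213, USP34 and PDS5A the interval of the summed ratio held 1, whereas most single circRNAs of these genes were in 1 library only.

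By summed reads the leading hosts were PLOD2 (569 and 836 reads), MYO10 (141 and 148), MYH9 (167 and 91) and DIAPH3, an actin-nucleating formin (126 and 112), followed by EIF2AK2 and RIMS1. Here and in all host and list sums below, uncatalogued circRNAs are those of middle span only. Uncatalogued circRNAs took 93.3% (91.0 to 95.1) and 88.7% (86.6 to 90.7) of the reads of PLOD2, 92.8% and 97.4% of those of MYO10, and 28.3% (24.2 to 32.7) and 29.3% (24.8 to 34.2) of those of DIAPH3. Over all 2877 hosts they took 17.6% (17.4 to 17.9) of 104091 control reads and 19.4% (19.1 to 19.6) of 98112 bone cancer pain reads. Of 895 hosts with 50 or more reads, uncatalogued circRNAs held more than 50% in both libraries in 93 and in 1 library only in 38. The intervals of the share did not overlap between the libraries in 73.

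**Figure D5:**
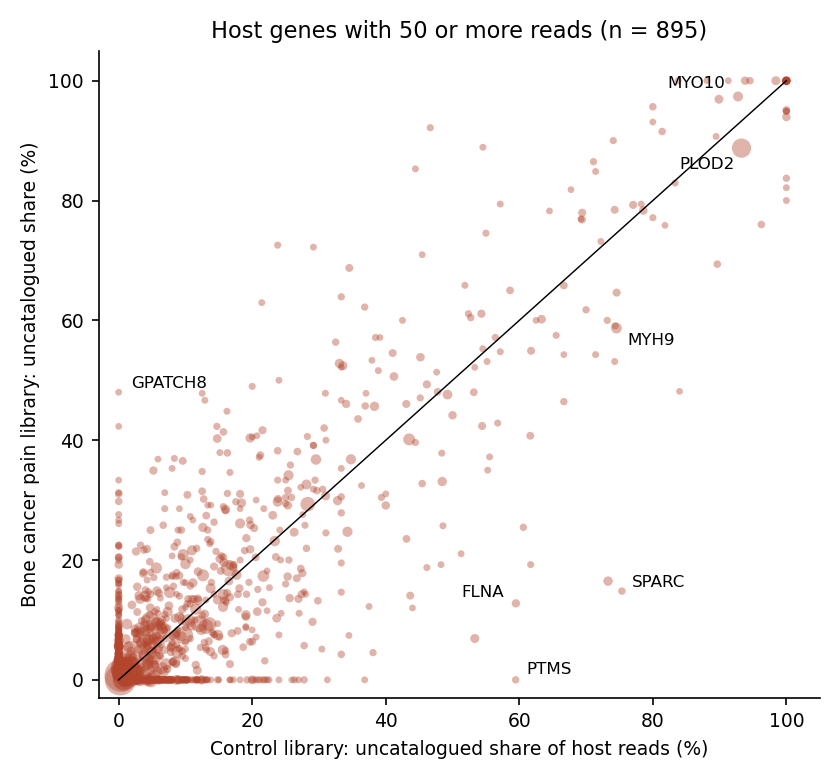
Share of a host gene's junction reads that lay on uncatalogued circRNAs of middle span, in the control (x axis, percent) and the bone cancer pain library (y axis, percent), for 895 hosts with 50 or more reads; each point is a gene, its area grows with the gene's reads, and the line marks equal shares. SPARC (75.4% and 14.8%), FLNA (59.5% and 12.8%) and PTMS (59.5% and 0%) lie far under the line, and GPATCH8 (0% and 48.0%) lies far above it.

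The share of host reads on uncatalogued circRNAs of middle span was then compared between the libraries. Among the hosts described that had 50 or more reads, it shifted most in SPARC, from 75.4% (63.5 to 84.9) in control to 14.8% (4.19 to 33.7) in bone cancer pain. SPARC was followed by PTMS (59.5%, 47.4 to 70.7, and 0%, 0 to 15.4). FLNA went from 59.5% to 12.8% (4.83 to 25.7). In PTMS and FLNA these were not shifts toward catalogued circRNAs. PTMS had no catalogued circRNA, and its other loop, of 295 bp (30 and 22 reads), was uncatalogued but under the span limit. Catalogued circRNAs of FLNA had 9 and 0 reads. The shifts of SPARC and PTMS rest on the single junctions of 52 and 44 reads described above. In FLNA the junction of 42 reads held 56.0% of the reads on uncatalogued circRNAs of middle span. A second uncatalogued circRNA of FLNA (153593283 to 153594741) had 22 and 4 reads. Toward a larger share, GPATCH8, a putative RNA-binding protein, went from 0% (0 to 12.3) to 48.0% (27.8 to 68.7), with 12 reads on 4 circRNAs.

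Of 940 hosts with 10 or more uncatalogued reads, 211 (22.4%) were higher by 2-fold or more in bone cancer pain and 173 (18.4%) lower by as much. The background over all 3035 host genes, with all their single-host circRNAs summed, was 13.3% higher and 14.2% lower. It was not matched for reads, since it sums every such circRNA of a gene. Among single uncatalogued circRNAs, calls either way fell from 49.7% at 10 to 19 reads to 18.8% at 50 or more. The gap between hosts and background was thus not separated from reads. The median log2 ratio was 0.179, beside -0.025 over all hosts. Among hosts with 20 or more uncatalogued reads, FAM135A (0 and 20 reads on 2 circRNAs) was highest. FBXL5, an iron-sensing subunit of a ubiquitin ligase, had 2 and 21 (11.1, 2.71 to 97.4), and ZNF292 was given above. BAZ1B, a subunit of chromatin remodellers, had 2 and 18. None of its uncatalogued circRNAs of middle span was in both libraries, while its catalogued hsa_circ_0004670 had 25 and 42 reads. On uncatalogued circRNAs of middle span, these hosts had none listed or 2 reads in the control library. The lowest were PTMS, BANP, a nuclear matrix protein (25 and 0 on 3 circRNAs, beside 523 and 343 reads on all circRNAs of the gene), SPARC (52 and 4, no uncatalogued circRNA in both), FLNA (69 and 6; 0.0917, 0.0325 to 0.210) and TTLL1.

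Host genes were then grouped by role. In the extracellular matrix list, 16 of 43 genes had an uncatalogued circRNA, 78 circRNAs in all, with 230 and 287 reads, which was 48.4% and 55.1% of the list's junction reads. Of 11 with 10 or more such reads, 4 were higher and 2 lower, beside 22.4% higher and 18.4% lower over the 940 hosts, and the median log2 ratio was 0.393 beside 0.179 over them. COL3A1, a fibrillar collagen with no catalogued circRNA, had 24 and 56 reads (2.46, with an interval above 1 and up to 4.15). FBN1, the fibrillin of microfibrils, had 28 and 35 on 10 circRNAs (1.32, 0.779 to 2.25), and fibronectin (FN1) 8 and 39 on 10 (5.14, 2.37 to 12.7). COL8A1, which the series design names, had 28 and 18 (0.678, 0.353 to 1.27). The fibroblast and endothelial markers described at the outset overlap this list in COL3A1 and FN1.

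In the list of actin cytoskeleton and adhesion, 34 of 51 genes had one (131 circRNAs, 833 and 601 reads, 18.9% and 17.2% of the list's reads). Of 16 with 10 or more reads, 4 were higher and 4 lower (median 0.161), beside 22.4% and 18.4% over the 940 hosts. PTK2, the focal adhesion kinase, was highest among those with 20 or more reads, with 21 and 46 (2.31, 1.35 to 4.07). These were 2.02% and 4.69% of its 1040 and 980 reads. FLNA, given above, was lowest. For housekeeping mRNAs of high abundance, 13 of 53 genes had an uncatalogued circRNA, with 68 and 49 reads, or 31.9% and 32.2% of the list's reads. ACTB, GAPDH, EEF1A1 and TUBB had no circRNA of any kind. In this list 3 genes had 10 or more reads, among them PTMS and the nuclear lamin LMNA (4 and 21; 5.54, 1.87 to 22.2).

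Of 50 chromatin regulators 34 had an uncatalogued circRNA, but these took 5.74% and 6.87% of the list's reads; 6 of 16 with 10 or more reads were higher and 3 lower (median 0.495), beside 22.4% higher and 18.4% lower over the 940 hosts. CHD7, a chromatin remodeller, had 44 and 53 reads (1.27, 0.836 to 1.94), and the histone demethylase KDM1A 23 and 37 (1.70, 0.982 to 2.99). The histone methyltransferase SETD2 was highest, with 12 and 42 (3.69, 1.91 to 7.70), and SMARCC1, a subunit of SWI/SNF remodellers, lowest, with 28 and 13 (0.490, 0.233 to 0.977). Of 46 RNA binding and splicing genes 30 had one, with 210 and 232 reads; of 12 with 10 or more reads 4 were higher and 3 lower (median 0.623), beside 22.4% and 18.4% over the 940 hosts. TNRC6A had the most uncatalogued reads of this list and its lowest ratio, with 77 and 19 (0.260, 0.149 to 0.434). ZC3H13, a subunit of the m6A methyltransferase complex and the highest with 20 or more reads, had no catalogued circRNA and 15 and 42 reads on 8 uncatalogued ones (2.95, 1.60 to 5.73).

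Of 47 genes of microtubules and mitosis 32 had one, with 230 and 234 reads; 5 of 15 were higher and 4 lower (median -0.099), where 22.4% and 18.4% of the 940 hosts were. CEP192, a centrosome scaffold, had 24 and 47 (2.06, 1.24 to 3.53), and the microtubule polymerase CKAP5 13 and 30 (2.43, 1.23 to 5.08). The microtubule stabiliser CLASP2 (4 and 29; 7.64, 2.68 to 29.9) and the kinesin KIF1B (29 and 5; 0.182, 0.0549 to 0.475) stood at the extremes, each with 8 uncatalogued circRNAs. Of 50 genes of the MAPK/ERK pathway and AKT, the pathway of the series title, 21 had one, with 173 and 187 reads, or 13.0% and 13.9% of the list's reads. Of 10 with 10 or more reads 2 were higher and none lower (median -0.053), beside 22.4% and 18.4% over the 940 hosts. RAPGEF2, an exchange factor for Rap, had 59 and 42 (0.751, 0.493 to 1.13), the kinase MAP3K1 3 and 17 (5.98, 1.73 to 31.8) and the kinase TAOK1 14 and 9 (0.678, 0.259 to 1.68).

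Hosts known for conserved circRNAs were the list with the smallest uncatalogued share of the 8. Because the list was made of genes with known circRNAs, a small uncatalogued share was largely set in advance. It is given as a description only. Of its 61 genes 60 had a circRNA and 31 an uncatalogued one of middle span, but these gave 353 of 20466 reads in control and 365 of 19499 in bone cancer pain, which was 1.72% and 1.87%. Of 16 with 10 or more reads 2 were higher and 4 lower (median 0.484), again beside 22.4% and 18.4% over the 940 hosts. CEP128 (52 and 64; 1.30, 0.886 to 1.91) and ARHGAP10, a GTPase-activating protein (53 and 51; 1.01, 0.677 to 1.52), had the most uncatalogued reads among them.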

How the data were processed

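Circular junction reads were measured in 1 control and 1 bone cancer pain library after ribosomal RNA depletion and RNase R (16 units, 15 minutes, 37 °C), per the labels. CASAVA 1.8 and BWA are named in the submitters' processing notes, with the build rn6 and no role for any of them and no circRNA caller. The deposited values, headed TPM by the authors, were treated as RPM of junction reads: above the placeholder of 0.001, 100% were whole multiples (within 0.001 reads) of 1 step per library. Dividing by the step gave reads; the placeholder was taken as 0, and the lowest listed value was 2 reads. With no replicates no test was made. Ratios are of shares of library reads, with exact conditional binomial (Clopper-Pearson) intervals; shares have exact binomial ones. PCR reads are not independent molecules, so intervals cover counting error only. Calls need a ratio of 2 or 0.5 after adding 0.5 reads, and 10 reads. Host sums left out rows with several gene names, dates and small RNA names; chromosome Y and X inactivation genes were left out (1 row). Some genes that the naming rule takes are not reported here. Members, lists and the rule for named genes were chosen with earlier results of these data known. The rule took members and hosts with the most reads, the most members, and the highest and lowest ratios (20 or more reads), the leading members by shared ends, the extreme pairs and share shifts, and up to 4 hosts per list. The functions were tested on simulated data. No exon or intron annotation was drawn on. The software was matplotlib 3.10.9, scipy 1.17.1, pandas 2.3.3 and numpy 2.4.6, under Python 3.11.15. Comparisons within read classes, of circRNAs listed in 1 library, of opposite pairs and of ends 3 bp apart were chosen after seeing the data. Alternatives for scaling, read minimums, span limits and the definition of a shared end are given with the closing observations.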

Additional observations from a re-analysis of the deposited data

How the results depend on the processing

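With 1 library per group, no setting tests the difference between the conditions. No paired analysis was possible because each group has 1 sample and no test was made. The counts of calls move with the number of circRNAs that enter them. Members at least 2-fold higher numbered 184 and lower 156. They became 535 and 457 with 5 or more reads, 52 and 41 with 20 or more, 119 and 102 where the interval had to exclude 1, 279 higher at 1.5-fold, and 119 higher with spans over 1000 and under 20000 bp. Under median of ratios scaling, which shifts log2 ratios by -0.076, 172 were higher and 168 lower, and the median log2 ratio of 0.076 became 0.000. Scaled to the total of catalogued circRNAs, 195 were higher and 143 lower. Host genes higher (211) and lower (173) became 83 and 59 with 20 or more reads, and 80 and 47 without each host's most abundant member.

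Of the members, 25.4% were in both libraries, and 66.8% with 5 or more reads and 89.4% with 10 or more. Their share of control and bone cancer pain reads, 11.5% and 12.6%, was 9.00% and 9.53% with spans over 1000 and under 20000 bp, 14.5% and 16.2% with no span limits, and 11.2% and 12.0% without the most abundant circRNA or without its host PLOD2. Members with a shared end, 37.2%, were 34.7% against catalogued circRNAs of 1 host and middle span, 26.4% against those in both libraries, and 40.8% among members with 10 or more reads. Their share of host reads, 17.6% and 19.4%, was 12.4% and 14.2% for hosts with 50 or more reads, and 13.1% and 14.5% for hosts with a catalogued middle-span circRNA. At shared ends, 13.7% and 16.2% became 9.69% and 11.3% at ends with 50 or more reads. In each of these settings the bone cancer pain share was the higher. Chosen after seeing the data, leaving out PLOD2 gave 17.2% and 18.7% of host reads and 12.9% and 15.0% at shared ends, and leaving out the 10 abundant members of 1 library gave 11.3% and 12.5% of library reads.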
